A study of Mus musculus with 40 samples.

Results

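Collagen genes were examined across the sorted cells of mouse colon tumors, healthy colon and blood. Members were all protein-coding genes whose symbol is Col, a number, the letter a and a number, which gave 44 of the 45706 genes in the deposited tables. They were divided by the kind of assembly their chains form into 11 fibrillar genes, 8 basement membrane genes (the 6 type IV chains with Col15a1 and Col18a1) and 25 other genes. Each of the 10 groups held 4 libraries, and levels are given as RPKM, read counts scaled to gene length and library size, which allows genes of different length to be compared.

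A collagen molecule is a triple helix of chains that are hydroxylated and folded in the endoplasmic reticulum, exported and, for the fibrillar types, trimmed of their propeptides and cross-linked outside the cell. Fibrillar collagens such as types I, III and V form the rope-like fibers of connective tissue and are made mainly by fibroblasts. Type IV collagen forms the sheet-like network of the basement membrane under the epithelium and around vessels, to which endothelial, epithelial and mural cells contribute. The remaining types decorate fibrils, form beaded filaments or short-chain networks, anchor the epithelium or span the plasma membrane.

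Tumor cells came from Cdx2CreERT2 - Apc fl/fl mice of mixed C57Bl6/Sv129 background that received 1 intraperitoneal dose of tamoxifen at 25 mg/kg at an age of 8 to 10 weeks. In these mice Cre is driven by Cdx2 regulatory sequence, which is active in the intestinal epithelium, so that Apc is lost there. Healthy mice were C57Bl6 and are labeled WT, and no tamoxifen dose is given for them. Strain, and transgene and agent where these differed, therefore cannot be told apart from the tumor in any comparison with them. Stromal cells were sorted as CD45- EpCAM-, epithelial cells as CD45- EpCAM+, neutrophils as CD45+ CD11b+ MHCII- Ly6G+ Ly6C-low cells and monocytes as the Ly6G- Ly6C-high cells of the same parent gate. Neutrophils and monocytes were sorted from tumors and from the blood of both kinds of mice, and some blood libraries pooled a pair of animals. Tumor stromal replicates 3 and 4 and tumor epithelial replicates 1 and 2 came from the same animals T1 and T2. Healthy stromal replicate 4 and healthy epithelial replicate 4 share the animal label Wta. Label T5 is on both a tumor and a blood neutrophil library, and T17 on both a tumor and a blood monocyte library. The T17 pair differed in Xist (0.039 RPKM in tumor, 15.3 RPKM in blood) and in the Y-linked Kdm5d (0.628 and 0.0727 RPKM). Tumor epithelial replicate 4, also labeled T5, held Xist at 46.8 RPKM, against 0.0225 and 0.0252 RPKM in the T5 neutrophil libraries. A shared label may thus not mean a shared animal. The tests treat such libraries as independent, other than where a block on animals is named.

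Libraries differed in ways that touch every result on stromal cells. Library totals ran from 10717873 to 38002939 estimated counts. Mitochondrial genes took 15.6 to 24.9% of the counts in healthy stromal cells, and 55.4, 62.9, 27.4 and 24.8% in tumor stromal replicates 1 to 4. The summed RPKM of 10 fibroblast markers was 643, 791, 481 and 2722 in healthy stromal replicates 1 to 4 and 10.1, 28.0, 18.6 and 17.1 in tumor stromal replicates 1 to 4. The summed RPKM of 8 endothelial markers was 134, 142, 170 and 31.4 in the healthy and 8.35, 7.75, 152 and 160 in the tumor stromal libraries. Tumor stromal replicates 1 and 2 therefore stood apart from 3 and 4, with 247 and 144 RPKM of 12 epithelial markers against 55.6 and 31.8, and healthy stromal replicate 4 stood apart in its fibroblast and endothelial markers. Tumor stromal replicates 3 and 4 also held erythroid markers at 3545 and 1084 RPKM and neutrophil markers at 1508 and 511 RPKM. Both Xist above 5 RPKM and the Y-linked Kdm5d above 0.4 RPKM were present in 6 libraries, 2 of them stromal and 2 epithelial, although the titles of these stromal and epithelial libraries name a single animal. Xist was uneven between the groups compared. Healthy stromal replicates 1 to 4 held 12.8, 0.146, 24.1 and 41.1 RPKM of it. Tumor stromal replicates 1 to 4 held 0.0528, 51.6, 0.0315 and 0.0448 RPKM. Xist was at most 0.0345 RPKM in tumor neutrophils and 0.0492 RPKM in tumor monocytes. In blood of tumor-bearing mice it was 7.35 and 6.31 RPKM in neutrophil replicates 3 and 4. Monocyte replicates 1 and 2 there held 15.3 and 18.7 RPKM. Their other replicates held at most 0.0272 RPKM. Healthy epithelial libraries held 6.68 to 34.6 RPKM, and tumor epithelial replicates 1 to 4 held 0.0204, 0.0194, 0.0413 and 46.8 RPKM. No test included sex. The other gates held their own markers, with epithelial markers at 97.3 to 482 RPKM in epithelial, neutrophil markers at 1904 to 19946 RPKM in neutrophil and monocyte markers at 155 to 472 RPKM in monocyte libraries. Since the tumor stromal pairs differ, results on them are also given for replicates 3 and 4 alone. That choice rests on the marker and mitochondrial values of these same libraries, and Col4a1, Col4a2 and Col15a1 follow the same split. Fits on this pair therefore describe these 2 tumor libraries and are no independent support.

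Promoter windows are shown for 2 fibrillar genes that changed together in stromal cells and for the 2 type IV genes that did not pass the test there. Windows reach from 250 bases before to 50 bases after the RefSeq start in build GRCm38.p6 and were given for 35 of the 44 members, in 38 windows. Capitals mark the TATA box (letters TATAAA), the CCAAT box (the letters of its name) and the GC box (letters GGGCGG), each searched on both strands, so that the reverse complement of a motif is in capitals as well.
Col1a2 (chr6:4505368-4505667, + strand): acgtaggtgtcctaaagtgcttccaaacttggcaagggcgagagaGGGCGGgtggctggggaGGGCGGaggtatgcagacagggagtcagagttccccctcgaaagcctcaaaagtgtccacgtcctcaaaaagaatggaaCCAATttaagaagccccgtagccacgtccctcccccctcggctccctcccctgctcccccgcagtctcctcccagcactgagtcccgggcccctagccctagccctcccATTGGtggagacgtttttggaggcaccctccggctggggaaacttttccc
Col3a1 (chr1:45311288-45311587, + strand): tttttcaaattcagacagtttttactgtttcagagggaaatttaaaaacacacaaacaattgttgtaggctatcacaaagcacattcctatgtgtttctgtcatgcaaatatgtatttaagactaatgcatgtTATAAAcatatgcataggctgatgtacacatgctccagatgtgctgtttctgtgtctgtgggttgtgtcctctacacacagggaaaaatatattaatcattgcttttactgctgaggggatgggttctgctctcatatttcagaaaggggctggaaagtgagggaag
Col4a1 (chr8:11312777-11313076, - strand): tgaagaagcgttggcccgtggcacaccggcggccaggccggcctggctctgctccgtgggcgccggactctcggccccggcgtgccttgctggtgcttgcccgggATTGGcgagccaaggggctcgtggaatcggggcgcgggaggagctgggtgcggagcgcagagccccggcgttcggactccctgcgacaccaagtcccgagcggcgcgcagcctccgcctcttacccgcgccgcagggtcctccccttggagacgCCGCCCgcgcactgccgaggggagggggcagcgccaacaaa
Col4a2 (chr8:11312555-11312854, + strand): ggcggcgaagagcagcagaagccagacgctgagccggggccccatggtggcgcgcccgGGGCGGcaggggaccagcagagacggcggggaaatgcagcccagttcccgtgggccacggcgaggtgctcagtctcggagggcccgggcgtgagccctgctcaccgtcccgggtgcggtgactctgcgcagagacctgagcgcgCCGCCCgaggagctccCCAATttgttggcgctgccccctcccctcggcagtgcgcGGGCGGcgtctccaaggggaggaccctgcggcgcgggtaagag

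Col4a1 and Col4a2 lie head to head on opposite strands of chromosome 8, with starts at 11312826 and 11312805, 21 bases apart, so that their windows share 78 bases. The shared stretch holds 1 GC box at chr8:11312812-11312817. The Col3a1 window held 1 match to the TATA box, with its first base at -117 from the start, and neither other motif. The Col1a2 window held 2 matches to the CCAAT box, at -109 and, in reverse, at 0. It also held 2 matches to the GC box, at -205 and -188, and none to the TATA box. Over all collagen windows, the GC box was found in 23 of 38 (60.5%), against 35.7% of the 32851 windows of all genes. The CCAAT box was found in 13 (34.2% against 37.4%) and the TATA box in 5 (13.2% against 13.6%). These are matches of letters and no test was made of them.

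Collagen RNA was concentrated in healthy stromal cells. Of the 44 members, 38 had their highest group mean there, among them all 8 basement membrane genes and 10 of 11 fibrillar genes, and 23 reached a mean of 1 RPKM. In tumor stromal cells 8 members reached that level, in tumor neutrophils 3, in tumor epithelial cells 2, and in each of the other 6 groups 0. The members with their highest mean elsewhere were Col10a1 (0.759 RPKM in blood neutrophils of tumor-bearing mice), Col11a2 (0.502 in blood neutrophils of healthy mice), Col17a1 (0.434 in blood monocytes of tumor-bearing mice) and Col9a2, Col22a1 and Col25a1 at lower levels. Col10a1 overlaps Nt5dc1 on the other strand, and the library kit is not stated to keep strand, so its reads cannot be told apart from those of that gene.

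**Figure D1:**
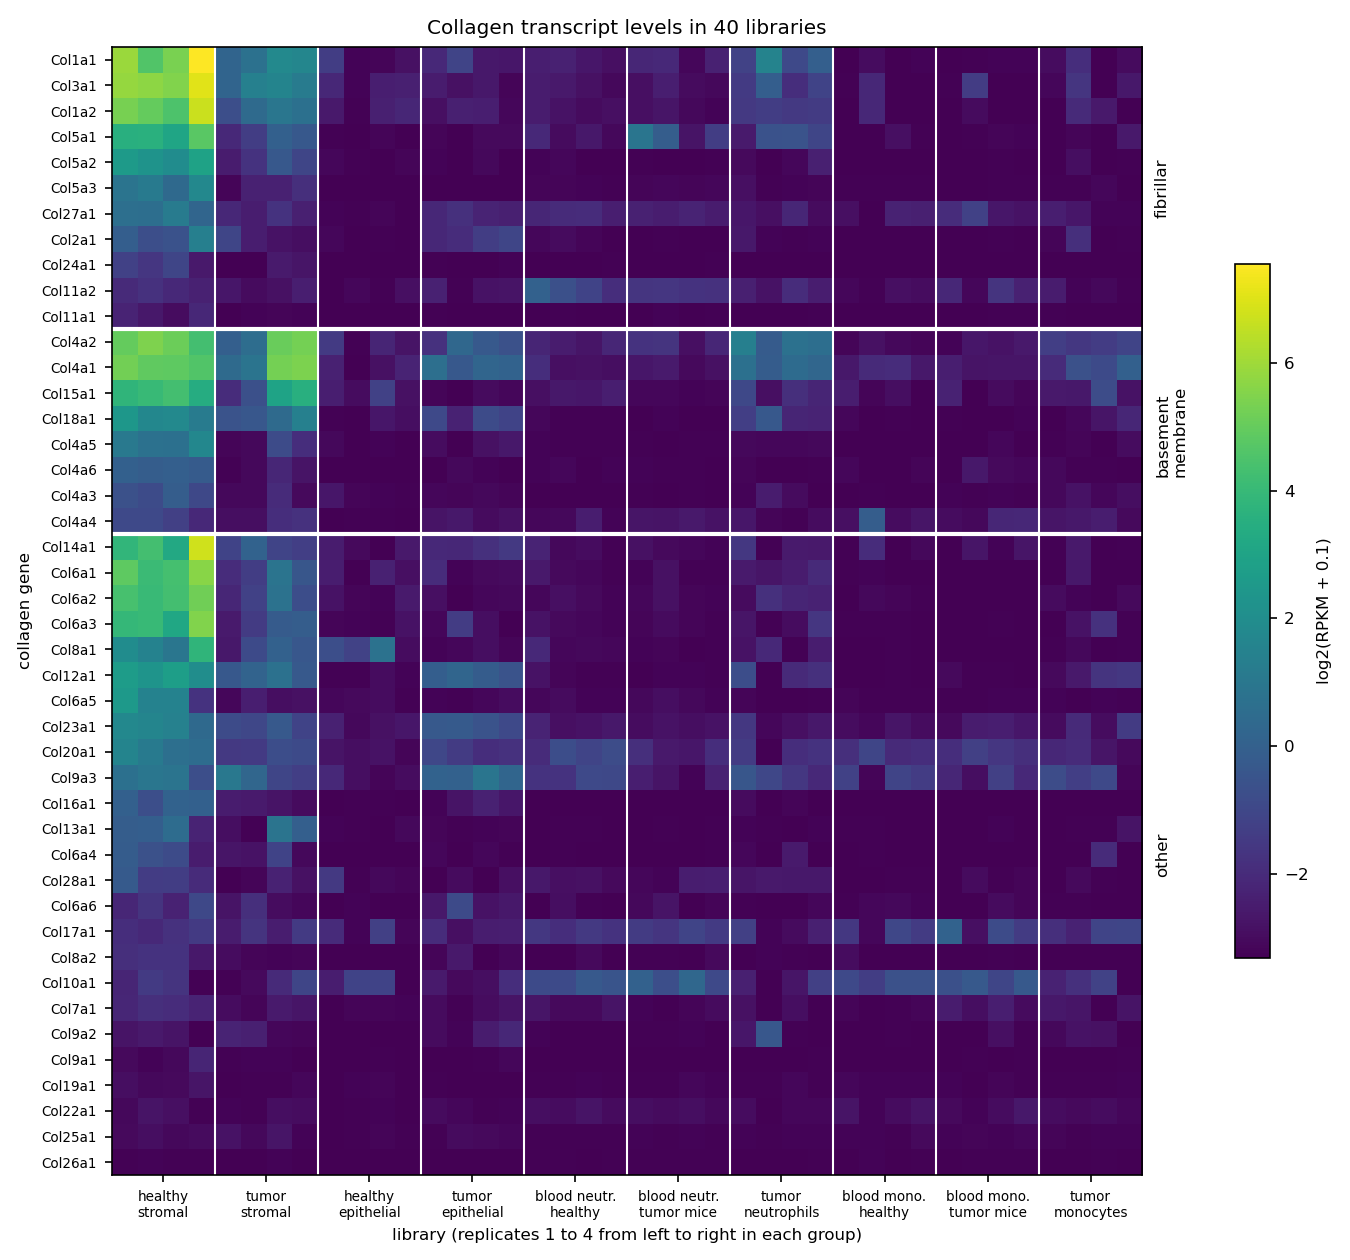
Level of each of the 44 collagen genes (vertical axis, by class and then by healthy stromal mean) in each of the 40 libraries (horizontal axis, 4 for each of 10 groups), coloured by log2(RPKM + 0.1). The healthy stromal libraries are brightest, with the highest group mean for 38 genes, and in tumor stromal replicates 3 and 4 Col4a1, Col4a2 and Col15a1 stay bright.

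The summed RPKM of all members was 378, 315, 295 and 791 in healthy stromal replicates 1 to 4 and 11.0, 16.4, 103 and 111 in tumor stromal replicates 1 to 4. All 4 healthy values lay above all 4 tumor values, with a gap between the tumor pairs. Elsewhere the sums were small: 5.93 to 7.07 in tumor epithelial cells, 0.973 to 3.43 in healthy epithelial cells, 6.16 to 8.75 in tumor neutrophils, 2.18 to 4.38 in blood neutrophils of tumor-bearing mice and 1.65 to 3.63 over the other myeloid groups.

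The make-up of the collagen RNA differed along with its amount. Fibrillar genes gave 47.5, 41.1, 42.7 and 59.1% of the summed RPKM in healthy stromal replicates 1 to 4, and 30.7, 37.5, 9.80 and 7.5% in the tumor stromal replicates. Basement membrane genes gave 24.3, 30.4, 30.3 and 7.69% in the healthy and 26.7, 26.8, 79.3 and 86.6% in the tumor stromal replicates. The high shares of basement membrane genes were thus held by tumor replicates 3 and 4, the libraries with endothelial markers at healthy levels, and the lowest share by healthy replicate 4, the library with the fewest endothelial and the most fibroblast markers among the healthy ones. The ratio of Col4a1 to Col3a1 RPKM was 0.656, 0.572, 0.630 and 0.178 in healthy and 1.20, 0.658, 13.5 and 19.4 in tumor stromal replicates. The part of endothelial or fibroblast cells in these shares was not tested, and in bulk RNA fewer cells of a type and less RNA per cell cannot be told apart.

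**Figure D2:**
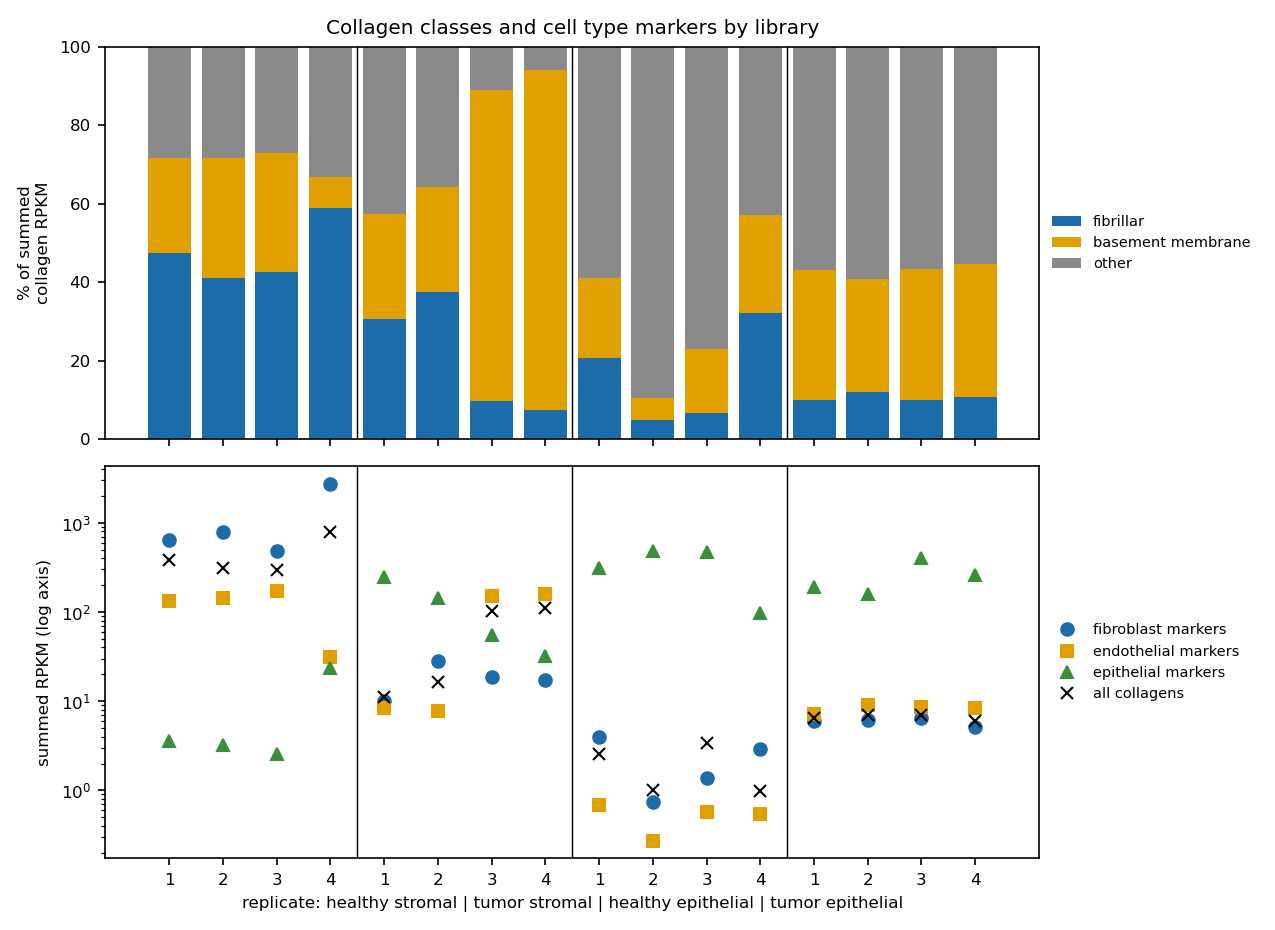
Upper panel, share of the 3 collagen classes in the summed collagen RPKM of each stromal and epithelial library, as stacked bars from 0 to 100%. Lower panel, summed RPKM of fibroblast, endothelial and epithelial markers and of all collagens in the same library, on a log axis. Tumor stromal replicates 3 and 4 hold 79.3 and 86.6% basement membrane collagen and endothelial markers at 152 and 160 RPKM.

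Stromal cells of tumors were compared with those of healthy colon to ask how the collagen program of the tumor stroma differs. Most fibrillar genes were lower in the tumor, with log2 changes of -4.81 for Col1a1, -4.94 for Col1a2 and -4.70 for Col3a1, as were Col6a1 (-5.08) and the fibril-associated Col14a1 (-5.85), while Col4a1 and Col4a2 did not pass the test. With edgeR's quasi-likelihood test, adjusted over all genes by Benjamini-Hochberg and called at an adjusted p under 0.05 and a log2 change past 1.5, 20 of 41 members tested were lower, against 5.01% of all genes tested. In the other direction 0 members were higher, against 3.39% of all genes. No member was higher at an unadjusted p under 0.05 (0 of 41), and limma-voom and DESeq2 called 0 higher as well. At an unadjusted p under 0.05, 28 members were lower. The median change over the tested members was -2.71 and that over all genes 0.03. P-values here measure the spread between these libraries. A member that passed the filter on low counts through the healthy libraries alone had to differ, so these counts describe the members tested. Col11a1 and Col8a2, both called, had at most 7 counts in each tumor stromal library. With a filter of 10 counts in every library, 14 of the 20 calls remained.

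The classes differed in their counts. Of the 11 fibrillar genes, 8 fell, with a class median of -3.70. Of the 8 basement membrane genes, 2 fell (median -1.32), and of 22 other genes tested 10 fell (median -2.04). With tumor stromal replicates 3 and 4 alone, 18 members were lower, against 3.04% of all genes, namely 8 fibrillar, 2 basement membrane and 8 other genes. In an alternative chosen after the data were seen, replicates 3 and 4 were set against healthy replicates 1, 2 and 3, and 24 members were lower, against 6.08% of all genes. The medians with replicates 3 and 4 alone were -3.61 for fibrillar, -0.60 for basement membrane and -1.96 for other genes. These are class counts, and the difference between classes was not tested.

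Type I collagen, the main fibrillar collagen of most tissues, is built from the products of Col1a1 and Col1a2. Col1a1 was at 60.7, 24.2, 41.1 and 188 RPKM in healthy and at 1.03, 1.54, 3.36 and 3.05 RPKM in tumor stromal replicates 1 to 4. The groups did not overlap, and the spread within the healthy group came mostly from replicate 4. Col1a1 fell by 4.81 (SE 0.76, adjusted p = 0.00835, edgeR). Its partner chain Col1a2 was at 39.7, 31.7, 23.1 and 103 RPKM in healthy and at 0.504, 1.24, 1.84 and 1.5 RPKM in tumor libraries. Col1a2 fell by 4.94 (SE 0.66, adjusted p = 0.0053, edgeR), close to the change of Col1a1.

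Col3a1 encodes the type III chain, which is abundant in elastic tissues such as the gut wall. Its level was 56.6, 52.7, 45.2 and 135 RPKM in healthy and 1.04, 2.57, 2.87 and 2.21 RPKM in tumor stromal replicates. It fell by 4.70 (SE 0.55, adjusted p = 0.00473, edgeR), again without overlap. Col5a1, a chain of the type V collagen that starts fibril assembly, was at 11.6, 11.8, 8.4 and 27.5 RPKM in healthy and at 0.139, 0.295, 0.897 and 0.707 RPKM in tumor libraries. It fell by 4.56 (SE 0.67, adjusted p = 0.00683, edgeR). Of the other fibrillar genes, Col5a2 fell by 3.70, Col5a3 by 4.05, Col11a1 by 3.40 and Col27a1 by 3.25. The cartilage collagen gene Col2a1 did not pass, with healthy values of 0.850, 0.504, 0.564 and 2.46 RPKM and tumor values of 0.383, 0.0823, 0.0435 and 0.0318 RPKM. With replicates 3 and 4 alone its change was -4.55 (adjusted p = 0.0288, edgeR).

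**Figure D3:**
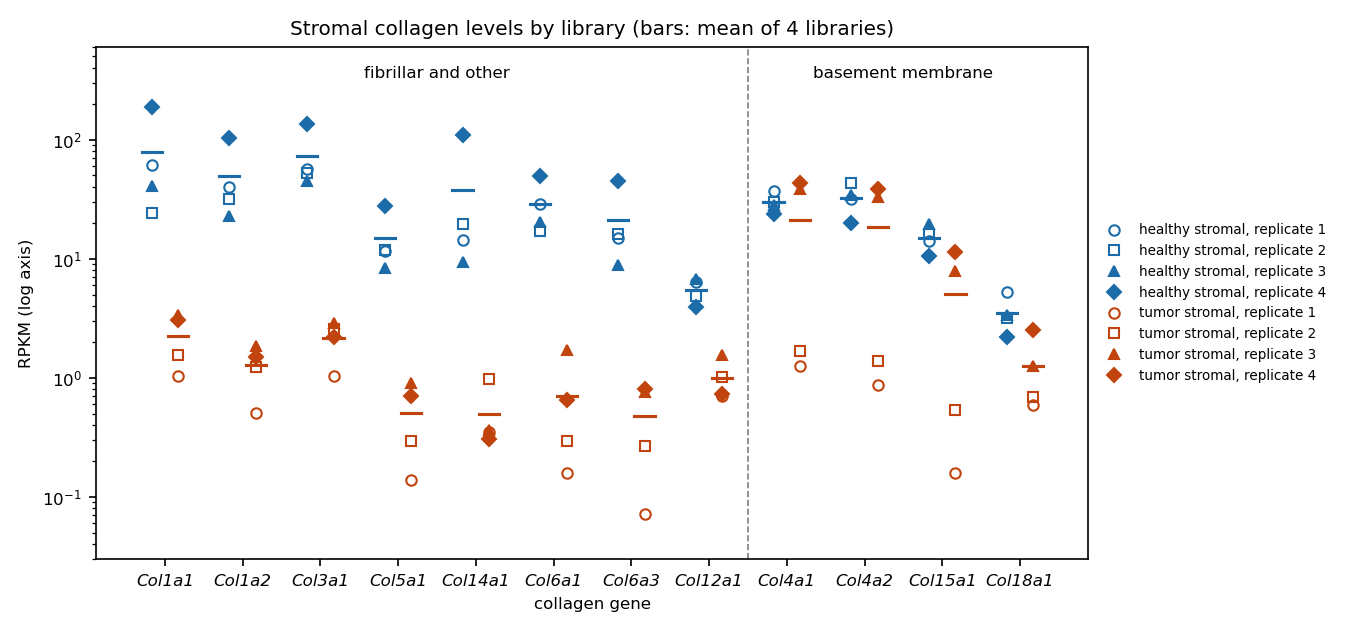
RPKM on a log axis of 12 collagen genes in each healthy (blue) and tumor (red) stromal library, with horizontal bars for the mean of 4 libraries and a dashed line before the basement membrane genes. The 8 fibrillar and other genes shown keep healthy and tumor points apart, whereas tumor replicates 3 and 4 reach 38.7 and 43.0 RPKM for Col4a1, beside 23.9 to 37.2 in the healthy libraries.

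The type IV pair split between the tumor libraries, as did Col15a1. Col4a1 was at 37.2, 30.1, 28.4 and 23.9 RPKM in healthy stromal replicates and at 1.25, 1.69, 38.7 and 43.0 RPKM in tumor stromal replicates. Col4a2, its partner in the common type IV trimer, was at 31.6, 43.2, 34.5 and 19.8 RPKM in healthy and at 0.868, 1.39, 33.2 and 38.6 RPKM in tumor libraries. Both genes were low in tumor replicates 1 and 2. In replicates 3 and 4 Col4a1 lay above the healthy range and Col4a2 within it. The change of Col4a1 was -0.22 (SE 0.96, adjusted p = 0.916, edgeR) with a 95% interval from -2.11 to 1.67, and that of Col4a2 was -0.53 (SE 1.02, adjusted p = 0.793, edgeR). With replicates 3 and 4 alone the estimates were 0.73 for Col4a1 (adjusted p = 0.156, edgeR) and 0.43 for Col4a2 (adjusted p = 0.557, edgeR). Leaving out tumor replicate 1 gave 0.18 for Col4a1 and leaving out replicate 2 gave 0.17, so its direction was not fixed by these libraries. A block on the replicate numbers of the labels gave -2.69 for Col4a1 (adjusted p = 0.229, edgeR) and -3.24 for Col4a2 (adjusted p = 0.174, edgeR). These numbers join different animals. They put tumor replicates 3 and 4 both with healthy replicate 3 and leave healthy replicate 4 without a tumor partner.

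The other basement membrane genes were lower or did not pass. Col4a6 fell by 3.83 (adjusted p = 0.0198, edgeR) and Col4a3 by 3.10 (adjusted p = 0.0325, edgeR). Col4a3 and Col4a6 encode chains of the tissue-restricted type IV networks. Col4a5, which pairs with both of them, was at -3.40 with an adjusted p of 0.0625, and at -2.46 (adjusted p = 0.0401) with replicates 3 and 4 alone. Col15a1, found in the zone between basement membranes and the underlying fibers, was at 14.0, 16.1, 19.4 and 10.5 RPKM in healthy and at 0.158, 0.537, 7.88 and 11.4 RPKM in tumor libraries (change -1.29, adjusted p = 0.477, edgeR). Col18a1, the source of the fragment endostatin, was at 5.23, 3.19, 3.38 and 2.21 RPKM in healthy and at 0.592, 0.685, 1.26 and 2.53 RPKM in tumor libraries (change -1.12, adjusted p = 0.171, edgeR). Both therefore were lowest in tumor replicates 1 and 2. Col18a1 overlaps Slc19a1 on the other strand, so that reads of the overlap cannot be told apart.

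Among the other genes, 4 of the 6 type VI genes fell, whose chains form beaded filaments in the space around cells. Col6a1 was at 29.0, 17, 20.4 and 49.8 RPKM in healthy and at 0.159, 0.292, 1.72 and 0.646 RPKM in tumor libraries, and fell by 5.08 (SE 0.78, adjusted p = 0.00755, edgeR). Col6a2 fell by 4.89, Col6a3 by 5.17 and Col6a5 by 5.54. Col6a4 (-1.69, adjusted p = 0.305, edgeR) and Col6a6 (-1.23, adjusted p = 0.416, edgeR) did not pass, and their healthy and tumor values overlapped. Col14a1, a fibril-associated collagen, was at 14.4, 19.4, 9.46 and 109 RPKM in healthy and at 0.352, 0.975, 0.363 and 0.304 RPKM in tumor libraries, and fell by 5.85 (SE 1.02, adjusted p = 0.0117, edgeR). Its mean rested on healthy replicate 4, but the other 3 healthy values also lay above all tumor values. Col12a1 was at 6.36, 4.86, 6.71 and 3.91 RPKM in healthy and at 0.708, 1.01, 1.57 and 0.733 RPKM in tumor libraries, and fell by 2.07 (adjusted p = 0.00729, edgeR). Col16a1 fell by 3.45, Col8a2 by 3.19, Col20a1 by 2.07 and Col23a1 by 2.02. Col8a1, a short-chain collagen of vessels and stroma, was at -3.08 with an adjusted p of 0.0621, its healthy values of 3.86, 2.75, 1.83 and 13.9 RPKM being widely spread.

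**Figure D4:**
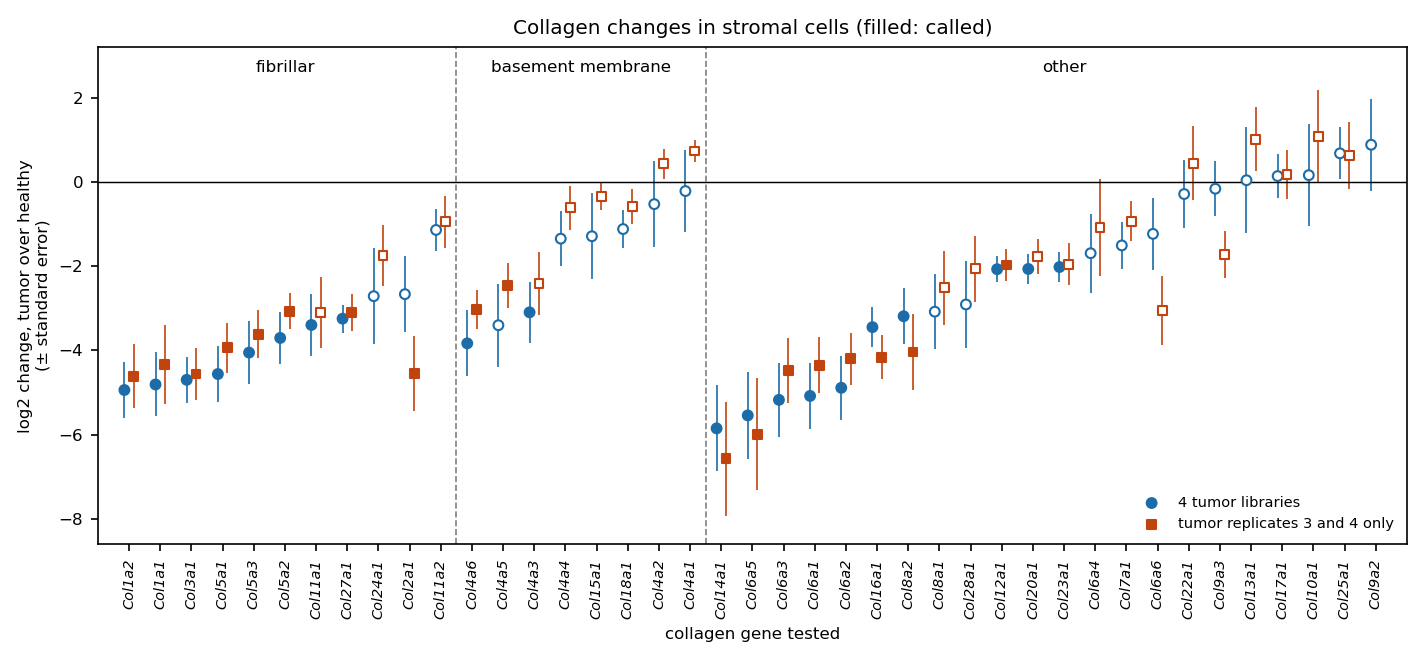
log2 change between tumor and healthy stromal cells (vertical axis, with its standard error) for the 41 collagen genes tested, by class, from all 4 tumor libraries (circles) and from tumor replicates 3 and 4 alone (squares), filled where called. All 11 fibrillar estimates lie below 0 in both fits, and Col4a1 moves from -0.22 to 0.73.

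The enzymes and receptors that serve collagen were taken as lists, to be read against 5.01% of all genes lower and 3.39% higher. Of 14 genes tested for export, propeptide removal and cross-linking, 11 fell, among them Pcolce2 (-6.39) and Pcolce (-5.07), which enhance the removal of the C-propeptide, the cross-linking oxidase Loxl1 (-5.74) and the N-propeptidase Adamts2 (-4.08). Of 19 genes tested for chain modification and folding, 4 fell, the hydroxylase family members P3h3 (-4.67) and Plod2 (-3.35), the folding isomerase Fkbp14 (-2.23) and Crtap (-2.20). Of 10 receptors tested, 3 fell, the integrin chain Itga11 (-5.68), the uptake receptor Mrc2 (-5.30) and the receptor kinase Ddr2 (-4.96), and 1 rose, the leukocyte receptor Lair1 (3.78). Of 7 proteases, the gelatinase Mmp2 fell by 4.12 and Fap by 4.08. With replicates 3 and 4 alone, 8 of 15 export genes, 3 of 19 modification genes, 3 of 10 receptors and 1 of 7 proteases fell, against 3.04% of all genes, and 1 receptor and 2 proteases rose, against 2.7%. All of these genes were judged by the same edgeR test and threshold.

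Epithelial cells of tumors were compared with healthy epithelial cells, where collagen levels were low on both sides. Mitochondrial genes took 67.4, 48.8, 48.6 and 83.9% of the counts in healthy and 60.5, 58.7, 46.3 and 55.0% in tumor epithelial replicates 1 to 4. Summed collagen was 3.85-fold higher in the tumor in RPKM, but 2.25-fold with TMM-scaled counts per length. RPKM values of these groups thus lie further apart than TMM-scaled counts. Of 22 members tested by edgeR, 8 were higher, against 7.52% of all genes, and 2 lower, against 7.88%. Of the 6 fibrillar genes tested 2 were higher, of the 5 basement membrane genes 1 was higher and 1 lower, and of 11 other genes 5 were higher and 1 lower. The class medians were 0.08, 2.51 and 0.77, beside -0.01 over all genes. A member that passed the filter on low counts through 1 group only had to differ, so that these shares describe the tested members and not the class. In every healthy epithelial library 12 members had at most 3 counts.

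The smallest adjusted p was that of Col12a1, a fibril-associated collagen. Col12a1 was at 0.844, 1.07, 0.785 and 0.593 RPKM in tumor epithelial and at 0.00447, 0.00368, 0.0275 and 0.00620 RPKM in healthy epithelial replicates. It rose by 5.71 (SE 0.65, adjusted p = 0.000191, edgeR), with no overlap. Col9a3, a chain of type IX collagen better known from cartilage, was at 0.971, 0.939, 1.76 and 1.07 RPKM in tumor and at 0.136, 0.0319, 0.0108 and 0.0275 RPKM in healthy replicates, and rose by 3.65 (SE 0.72, adjusted p = 0.00451, edgeR). It overlaps Tcfl5 on the other strand. In tumor stromal cells Col9a3 was at 1.96, 1.09, 0.381 and 0.311 RPKM, higher in replicates 1 and 2, the libraries with more epithelial markers.

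Other members rose from very low levels. Col6a6 rose by 6.15, Col2a1 by 4.98, Col27a1 by 3.91, Col23a1 by 2.42 and Col20a1 by 2.35. Col4a4 had at most 3 counts in each of the healthy epithelial libraries. With counts scaled to library totals, its tumor mean was 10.7-fold a floor of 3 counts per healthy library. That floor covers counting error only, and the totals include mitochondrial counts. On TMM-scaled counts edgeR gave 10.3-fold (log2 change 3.37, 95% interval from 2.14 to 4.61), so 10.7-fold is no lower bound. The tumor level of Col4a4 remained between 0.0254 and 0.0634 RPKM. Col23a1, a transmembrane collagen, was at 0.722, 0.739, 0.579 and 0.435 RPKM in tumor and at 0.0987, 0.0166, 0.0393 and 0.0580 RPKM in healthy replicates.

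Lower in the tumor epithelium were Col8a1 and Col15a1. Col8a1 fell by 5.59 (adjusted p = 0.000796, edgeR), from 0.513, 0.345, 1.64 and 0.0295 RPKM to 0.00730, 0.0132, 0.0329 and 0.0102 RPKM, and these ranges overlap. Col15a1 fell by 3.84 (adjusted p = 0.0141, edgeR), from 0.0883, 0.0294, 0.325 and 0.0389 RPKM to 0.0119, 0.000395, 0.0260 and 0.0138 RPKM. Col4a1, at 1.45, 0.703, 1.07 and 0.958 RPKM in tumor and 0.102, 0.00167, 0.0394 and 0.114 RPKM in healthy replicates, had a change of 2.51 with an adjusted p of 0.11, although its values did not overlap. The sum of endothelial markers was 7.27 to 9.03 RPKM in tumor and 0.274 to 0.687 RPKM in healthy epithelial libraries, and that of fibroblast markers 5.20 to 6.43 and 0.737 to 3.97 RPKM. Their part in the collagen values was not tested. Of the pathway genes, beside 7.52% higher and 7.88% lower over all genes, 3 of 16 for modification rose (P3h2 by 8.65, Plod2 by 3.71 and P4ha2 by 3.64), 2 of 5 for export (Loxl4 by 4.30 and Bmp1 by 2.76) and 1 of 2 proteases (Mmp14 by 2.07). Of 7 receptors Ddr1 rose by 2.03, while the integrin chains Itga1 and Itga2 fell by 2.79 and 2.51.

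**Figure D5:**
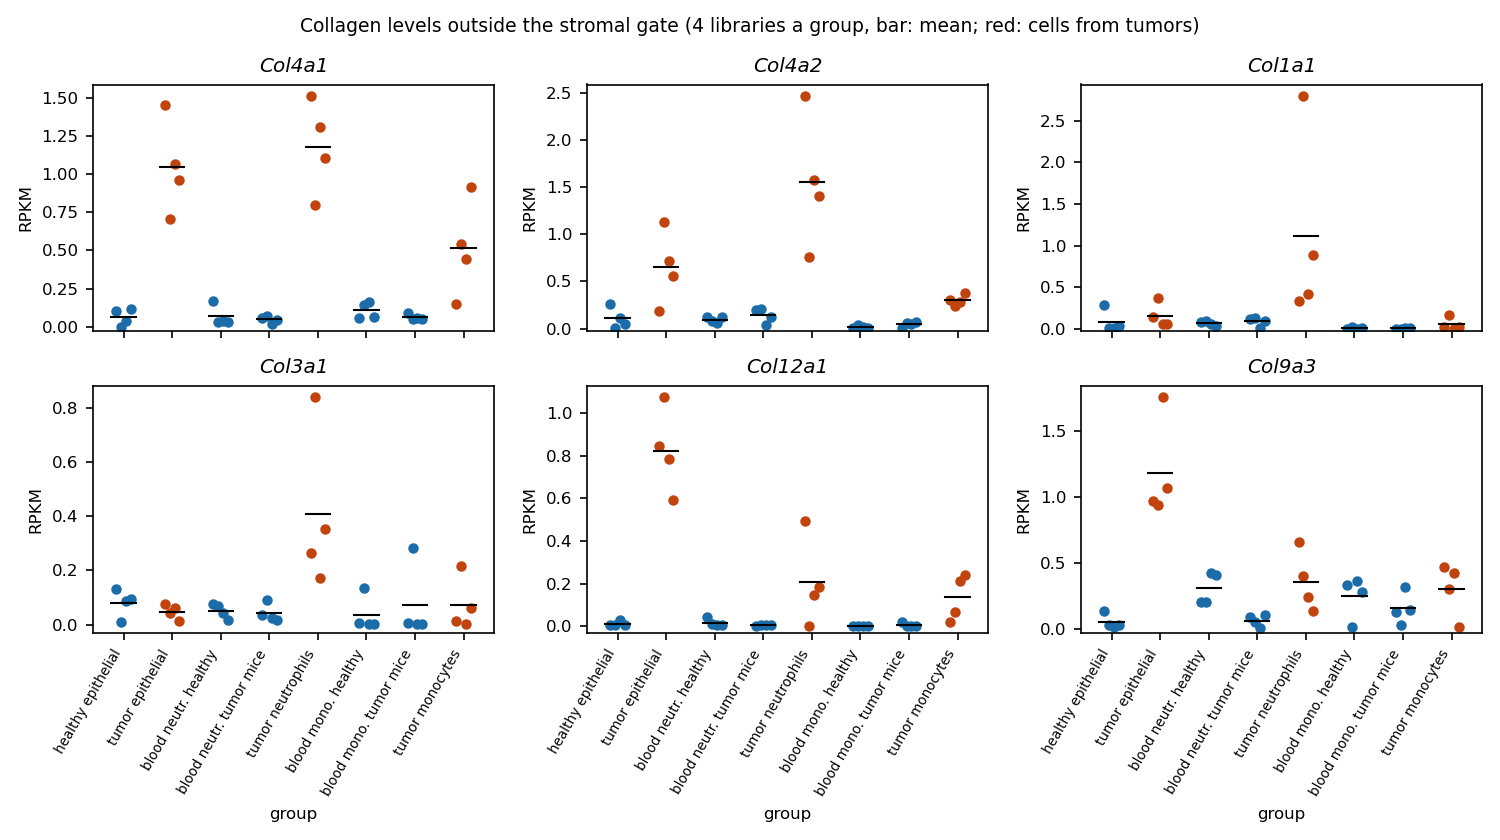
RPKM of 6 collagen genes in each library of the 8 groups outside the stromal gate, with bars for the mean of 4 libraries and cells from tumors in red. For Col4a1, tumor epithelial libraries (0.703 to 1.45 RPKM) lie above the healthy ones, and tumor neutrophils and monocytes above the same cells in blood of tumor-bearing mice.

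Healthy stromal cells set against healthy epithelial cells gave the difference between the compartments without tumor. Of 40 members tested by edgeR, 35 were higher in stromal cells, against 19.4% of all genes, and 0 were lower, against 11.5% of all genes. No member was lower at an unadjusted p under 0.05 (0 of 40), and limma-voom and DESeq2 called 0 lower as well. The members higher were 10 of 11 fibrillar, 8 of 8 basement membrane and 17 of 21 other genes, with class medians of 7.74, 6.56 and 4.89 beside 0.14 over all genes. Col3a1 was higher by 8.22 (SE 1.18, adjusted p = 0.000674), Col4a1 by 6.99 (SE 1.29, adjusted p = 0.00237) and Col12a1 by 8.04 (SE 0.70, adjusted p = 5.92e-05). Col5a3 had at most 1 count and Col16a1 at most 2 counts in each healthy epithelial library. With counts scaled to library totals, their stromal means were 386-fold and 156-fold a floor of 3 counts per epithelial library. Mitochondrial genes took 48.6 to 83.9% of these totals in healthy epithelial and 15.6 to 24.9% in healthy stromal cells. These folds are therefore no lower bounds. On TMM-scaled counts edgeR gave log2 changes of 9.75 for Col5a3 (95% interval 8.43 to 11.1) and 7.48 for Col16a1 (6.30 to 8.66). Collagen export (12 of 14) and modification (14 of 19) genes were mostly higher as well, as were 5 of 9 receptors, of which 1 was lower, and 4 of 6 proteases, beside 19.4% higher and 11.5% lower over all genes. Members and list genes that passed the filter through the stromal libraries alone had to differ, so these counts describe the genes tested.

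The same compartments within the tumor were compared next. With all 4 tumor stromal libraries, 1 of 33 members tested by edgeR was higher in stromal cells, against 0.0294% of all genes, and 0 were lower at an unadjusted p under 0.05, with 16 higher at that p. That member was Col3a1 (5.52, SE 0.66, adjusted p = 0.0438). limma-voom called 0 members and DESeq2 called 14. A block on animal labels, in which only T1 and T2 held both stromal and epithelial libraries, called 12 members higher and 1 lower. The other libraries stood alone in their blocks, so this contrast rested on stromal replicates 3 and 4 and epithelial replicates 1 and 2. It left little from which to measure the spread between libraries. Leaving out tumor stromal replicate 1 gave 11 calls and leaving out replicate 2 gave 10, whereas leaving out any other library gave 0. With stromal replicates 3 and 4 alone, 20 of 39 members were higher, against 16% of all genes, and 2 were lower, against 6.62%. The higher members were 7 of 10 fibrillar, 8 of 8 basement membrane and 5 of 21 other genes. Col15a1 was higher by 9.39, Col13a1 by 7.09, Col5a3 by 6.29 and Col4a1 by 5.11, and Col2a1 (-2.76) and Col9a3 (-1.89) were lower.

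Whether the tumor change differed between the compartments was tested as an interaction over the 16 stromal and epithelial libraries. These comparisons share libraries with those above. Of 42 members tested by edgeR, 19 had a lower change in stromal than in epithelial cells, against 6.81% of all genes, and 0 a higher one, against 7.25% of all genes. At an unadjusted p under 0.05, 26 members had a lower and 0 a higher change, and limma-voom and DESeq2 called 0 higher as well. The calls were 4 fibrillar, 4 basement membrane and 11 other genes. Only 22 members were tested in the epithelial comparison, so that others entered here through the stromal libraries. Of the 19, 5 had at most 3 counts in every healthy epithelial library (Col8a2, Col6a4, Col4a6, Col16a1 and Col4a4), and their fitted differences depend on the prior count and are no bound. Others lay near that floor there, with at most 4 counts for Col6a6, 5 for Col2a1 and Col5a1, 7 for Col4a5 and 8 for Col27a1. Over the alternatives run, the Col27a1 difference ranged from -7.42 to -1.33. Col12a1, which fell in stromal and rose in epithelial cells, had a difference of changes of -7.76 (SE 0.74, adjusted p = 2.59e-05, edgeR), Col27a1 of -7.14 (SE 0.60, adjusted p = 1.22e-05) and Col20a1 of -4.42 (SE 0.63, adjusted p = 0.000359). The changes of Col4a1 differed by -2.75 (adjusted p = 0.262, edgeR) and those of Col3a1 by -2.75 (adjusted p = 0.117, edgeR). With tumor stromal replicates 3 and 4 alone, 16 members had a lower change, against 5.43% of all genes, and 1 a higher one, against 5.62%, which was Col15a1 (3.41, adjusted p = 0.0244, edgeR, against 2.51 and 0.265 with all libraries). Of the pathway lists, with all libraries and beside 6.81% lower and 7.25% higher over all genes, 7 of 19 modification and 8 of 14 export genes had a lower change, as did 1 of 10 receptors and 1 of 7 proteases, and 2 receptors had a higher one.

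Neutrophils are not a textbook source of collagen, and most members were at low levels in them. In tumor neutrophils, set against blood neutrophils of tumor-bearing mice, 7 of 22 members tested by edgeR were higher, against 11.9% of all genes, and 0 lower, against 4.41% of all genes. At an unadjusted p under 0.05, 11 were higher and 1 lower, and limma-voom and DESeq2 each called 1 lower. The higher members were 4 of 5 basement membrane and 3 of 6 fibrillar genes, and of the 11 other genes 4 were higher and 1 lower at an unadjusted p under 0.05 only. Class medians were 3.88, 1.36 and 1.06, beside 0.11 over all genes. A member that passed the filter through the tumor libraries alone had to differ, so these counts describe the members tested and not the class.

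Col4a1 was at 1.51, 0.797, 1.31 and 1.10 RPKM in tumor neutrophils and at 0.0569, 0.0739, 0.0204 and 0.0419 RPKM in blood neutrophils of the tumor-bearing mice. The groups did not overlap, and Col4a1 rose by 4.64 (SE 0.54, adjusted p = 0.000626, edgeR). Col4a2, at 2.46, 0.764, 1.58 and 1.41 RPKM against 0.199, 0.208, 0.0359 and 0.126 RPKM, rose by 3.44 (SE 0.56, adjusted p = 0.00253, edgeR). Col18a1 rose by 7.0 and Col15a1 by 3.88, from blood levels of at most 0.00918 and 0.0143 RPKM. Among the fibrillar chains Col1a1 rose by 4.02, Col3a1 by 3.62 and Col1a2 by 3.33. Col1a1 was uneven among the tumor libraries, at 0.336, 2.80, 0.422 and 0.894 RPKM, and highest in replicate 2.

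Epithelial markers were higher in tumor neutrophils, with a summed RPKM of 14.1 to 183 against 0.657 to 1.61 in blood neutrophils. The ranges overlapped for endothelial markers, at 0.548 to 6.80 and 0.639 to 1.37, and for fibroblast markers, at 6.92 to 13.5 and 8.64 to 11.8. Tumor replicate 2, with the highest Col1a1, had the lowest endothelial and the highest fibroblast sum. Their part in the collagen values was not tested. Of the pathway genes, beside 11.9% higher and 4.41% lower over all genes, Serpinh1, the collagen chaperone, rose by 5.48, P4hb by 3.89 and P4ha1 by 2.47 among 8 modification genes tested, with Plod3 falling by 1.59, and Mmp14 rose by 5.98 among 6 proteases and the integrin chain Itgb1 by 2.69 among 4 receptors.

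Tumor monocytes set against blood monocytes of tumor-bearing mice gave 3 of 14 members higher by edgeR, against 7.76% of all genes, and 0 lower, against 3.89% of all genes. At an unadjusted p under 0.05, 3 were higher and 0 lower, and limma-voom and DESeq2 called 0 lower. Col4a1 was at 0.150, 0.541, 0.445 and 0.918 RPKM in tumor and at 0.0911, 0.0504, 0.0552 and 0.0546 RPKM in blood monocytes, and rose by 3.28 (SE 0.58, adjusted p = 0.00341, edgeR). Col4a2 rose by 2.96 (SE 0.67, adjusted p = 0.0127, edgeR), from 0.00852, 0.0582, 0.0440 and 0.0680 RPKM to 0.302, 0.240, 0.278 and 0.376 RPKM. Col12a1 rose by 4.34 (adjusted p = 0.0135, edgeR), with values of 0.0213, 0.0654, 0.213 and 0.241 RPKM in tumor and 0.0217, 0.00352, 0.00349 and 0.00276 RPKM in blood monocytes, and the lowest tumor value lay below the highest blood value. Epithelial markers summed to 1.96 to 37.4 RPKM in tumor and 0.567 to 1.01 RPKM in blood monocytes, and their part was not tested. Beside 7.76% of all genes, P4ha1 (1 of 10 modification genes) rose by 2.09 and Mmp14 (1 of 7 proteases) by 7.38.

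In blood, tumor-bearing mice were compared with healthy mice. In neutrophils 1 of 20 members tested by edgeR was lower, against 2.22% of all genes, and 0 were higher, against 1.79%, with 5 lower and 1 higher at an unadjusted p under 0.05. limma-voom called 0 higher and DESeq2 1. Col15a1 fell by 2.39 (SE 0.50, adjusted p = 0.0206, edgeR), from 0.0369, 0.0610, 0.0580 and 0.0877 RPKM in healthy to 0.0143, 0.0142, 0.00741 and 0.00957 RPKM in tumor-bearing mice. Col5a1, at 1.78, 0.822, 0.0479 and 0.294 RPKM in neutrophils of tumor-bearing and 0.136, 0.0264, 0.0648 and 0.0189 RPKM in those of healthy mice, had a change of 3.55 with an adjusted p of 0.0568. The Col15a1 call was lost when replicate 1, 2 or 4 of the tumor-bearing or replicate 3 or 4 of the healthy mice was left out. Of the pathway genes, beside 1.79% higher and 2.22% lower over all genes, P4ha1 rose by 2.00 and the collagenase Mmp8 by 2.78, while Lair1 fell by 1.67 and Fap fell by 4.57. In monocytes edgeR called 0 of 13 members higher, against 0.0914% of all genes, and 0 lower, against 0.118% of all genes. At an unadjusted p under 0.05, 2 were higher and 0 lower, limma-voom called 0 and DESeq2 called 1, higher.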

How the data were processed

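RNA of sorted cells was amplified (NuGEN Ovation V2), made into TruSeq Nano libraries and sequenced on a HiSeq instrument by the authors. Bowtie2, bcl2fastq, limma and mm10 are named in the submitters' processing notes, and the paper names HTSstation for counting. The authors deposited expected counts (estimated counts per gene) without normalization, and RPKM values that the authors computed from the same counts. Per library, the RPKM scale relative to 1 over the total of counts ranged from 0.642 to 1.55. Counts were rounded to whole numbers and tested here with edgeR 4.0.16 in R 4.3.3 (filterByExpr, TMM, robust quasi-likelihood test), limma 3.58.1 and DESeq2 1.42.0 as alternatives, with Benjamini-Hochberg adjustment over all genes, an adjusted p under 0.05 and a log2 change past 1.5. RPKM alternatives used log2 with pseudocounts of 1 and 0.1. All deposited per-sample columns were used. Depth was 10717873 to 38002939 counts per library, and mitochondrial genes took 5.34 to 83.9% of them. Named members were called in a comparison, among the 5 highest of their class, highest outside the stroma at 0.5 RPKM or more, or partner chains of such members, and at most 4 called genes were named from each pathway list. Members and lists were chosen with earlier results of these data known. Replicate numbers were checked for pairing by correlating deviations from group means (between -0.15 and 0.25), and no comparison had every pair above 0.1, so no block on these numbers was used in the main fits. This check does not cover the T1 and T2 pairs of tumor stromal and epithelial libraries or the T5 pair of neutrophil libraries, whose numbers differ. For T1 and T2 a block on animals is given as an alternative. The test was checked on simulated data. Labels give 2 tumor stromal libraries the replicate number 3, and the second is called replicate 4. The strain label of the tumor mice carries a number that counts up from sample to sample, and is given as Sv129.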

Additional observations from a re-analysis of the deposited data

Results flagged for a closer look

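Among 66 sets of 4 library values examined, 7 had 1 library far from the others by Dixon's ratio of the gap to the range at its 95% critical value. Chance gives about 1 in 20 such sets. In healthy stromal replicate 4, Col3a1 was at 134.8 RPKM, Col14a1 at 109.0 RPKM, Col8a1 at 13.9 RPKM and the summed collagen RPKM at 791, each the highest of its group, and the library also held the most fibroblast and fewest endothelial markers. Col9a3 was highest in tumor epithelial replicate 3 at 1.76 RPKM. The share of basement membrane genes was lowest in tumor epithelial replicate 2 at 28.8% and highest in replicate 2 of blood monocytes of healthy mice at 44.6%, a library with Col4a4 at 0.835 RPKM.

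The tumor change differed between stromal and epithelial cells for 19 members by the interaction test of edgeR, with adjusted p from 1.22e-05 to 0.0447. The differences of log2 changes were -4.71 for Col4a4, -5.92 for Col6a3, -3.79 for Col18a1, -4.46 for Col23a1, -4.91 for Col1a1, -6.52 for Col14a1, -7.67 for Col2a1, -5.67 for Col5a1, -3.81 for Col9a3 and -4.42 for Col20a1. They were -7.14 for Col27a1, -9.17 for Col8a2, -7.22 for Col16a1, -7.76 for Col12a1, -7.42 for Col6a6, -4.80 for Col6a5, -7.03 for Col6a4, -5.40 for Col4a6 and -4.96 for Col4a5. Col8a2, Col6a4, Col4a6, Col16a1 and Col4a4 had at most 3 counts in every healthy epithelial library, so that their differences depend on the prior count and are no bound. Col6a6, Col2a1, Col5a1, Col4a5 and Col27a1 had at most 8 counts there.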

How the results depend on the processing

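Strain, transgene and tamoxifen cannot be told apart from the tumor, and Xist was uneven between the groups compared. Tumor stromal libraries fall into unlike pairs, and levels under 0.1 RPKM rest on few counts. On log2(RPKM + 1) the calls were 12 for tumor against healthy stromal cells, 0 for epithelial cells, 19 for healthy stromal against epithelial cells, 0 for tumor against blood neutrophils and 0 for monocytes, 0 for blood neutrophils and 12 for the interaction. The filter of 10 counts in every library left 14 calls in tumor against healthy stromal cells and 2 in healthy stromal against epithelial cells. It left 2 in tumor neutrophils, 1 in tumor monocytes and 0 in blood neutrophils. In epithelial cells and in the interaction it left 0 members to test. With all 40 libraries in 1 fit there were 13 calls for tumor stromal against epithelial cells, 17 for tumor neutrophils, 9 for tumor monocytes and 0 for blood neutrophils. DESeq2 called 14 for tumor stromal against epithelial cells, 12 for tumor neutrophils, 4 for blood neutrophils and 1 for blood monocytes. For tumor stromal against epithelial cells, limma-voom called 0, DESeq2's size factors in edgeR 0, log2(RPKM + 0.1) 3, replicates 3 and 4 alone 22 and the animal block 13. Blood neutrophils had 0 calls without a filter and 0 on log2(RPKM + 0.1). Apart from the scale of log2(RPKM + 1), the cause of these shifts was not tested. Since same-numbered libraries did not deviate together, the replicate block is only an alternative: it gave 19, 10, 33, 1, 7, 2, 0, 0 and 17 calls in the 9 comparisons, in the order of tumor against healthy stromal, epithelial, healthy and tumor compartments, tumor neutrophils and monocytes, blood neutrophils and monocytes, and interaction.

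Col4a1 in stromal cells ranged from -0.85 (without tumor replicate 4) to 0.18 (without tumor replicate 1) with 1 library left out. Leaving out 1 library at a time gave 16 to 20, 9 to 13, 32 to 35, 0 to 11, 6 to 12, 3 to 4, 0 to 2, 0 and 14 to 22 calls in the same order. Tumor neutrophils had 12 without tumor replicate 2. Col4a1 in stromal cells, -0.22 with all libraries, was 0.18 and 0.17 without tumor replicate 1 or 2, 0.73 with replicates 3 and 4 alone and 0.64 against healthy replicates 1, 2 and 3, and Col4a2 was 0.43 and 0.25 in the last pair of settings. With the replicate block Col4a1 was at -2.69 and Col4a2 at -3.24, the lowest of the settings run, and neither passed the test in any of them. The difference of changes for Col15a1 was 2.51 (adjusted p = 0.265, edgeR), 3.41 with tumor stromal replicates 3 and 4 alone and 3.28 against healthy replicates 1, 2 and 3 (adjusted p = 0.0244 and 0.0315, edgeR), -1.92 on log2(RPKM + 1) and -2.11 on log2(RPKM + 0.1). Summed collagen RPKM of tumor over healthy epithelial cells was 1.95 on the log2 scale and 1.17 with TMM-scaled counts per length.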
